A study of Rattus norvegicus with 40 samples.

Results

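Diethylnitrosamine (DEN) is a liver carcinogen that hepatocytes activate into a reactive form that ethylates DNA bases. The 10 genes described here, Mgmt, Mpg, Alkbh2, Alkbh3, Ung, Ogg1, Apex1, Parp1, Xrcc1 and Polb, encode enzymes and scaffolds that remove alkylated or otherwise damaged bases, and they were taken by symbol from the 17337 genes counted. Their mRNA was measured by RNA-seq in 40 liver libraries of 24 male Fischer 344 rats, in 8 groups of 4 rats. DEN was given once a week by intraperitoneal injection at 50 mg/kg from 7 weeks of age. Non-tumoral (NT) liver of DEN rats was sampled after 8 weekly injections (8 w), after 14 (14 w), and 6 weeks after the last of 14 injections (20 w). At 14 w and 20 w, 2 tumor nodules of each DEN rat were sequenced too. Age-matched rats without DEN gave the no DEN group at each time. The DEN rats were therefore still under weekly treatment at 8 w and 14 w but not at 20 w.

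Damaged bases are repaired along 2 kinds of route. In direct reversal, a single protein takes the alkyl group off the base and leaves the DNA strand whole: Mgmt acts on the oxygen of guanine, and Alkbh2 and Alkbh3 act on ring nitrogens of adenine and cytosine. In base excision repair, a DNA glycosylase (Mpg for alkylated purines, Ung for uracil, Ogg1 for oxidised guanine) cuts the base off, Apex1 cuts the strand at the empty site, Parp1 marks the break, Xrcc1 holds the complex and Polb fills the gap.

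Levels are given as CPM, counts scaled to a common library total, after TMM scaling. TMM compares libraries after setting aside the genes with the most extreme ratios between them and those at either end of abundance. The 2 nodules of a rat were added to give 1 value per rat. Libraries held 20528515 to 160622633 counted pairs, and the largest, NT liver of rat H26 at 20 w, held 4.08 times the next. Each member had between 76 and 7818 counts in every rat and tissue, so all 10 passed the filter on low genes in every comparison. The nodules of rat F06 at 14 w stood apart, with 28.2% and 34.5% of pairs outside annotated exons against 21.5% to 26.3% in every other library. Hepatocyte transcripts dominated all groups, with a summed level of 5 hepatocyte markers between 152340 and 313455 CPM.

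The members did not move as a group. Mgmt rose in NT liver at 8 w and 14 w and did not differ beyond the spread at 20 w, Ung fell in every DEN tissue, Apex1 was called higher in NT liver and nodules at 14 w and 20 w, Ogg1 rose in nodules, and Parp1 rose in NT liver at 14 w. Mpg, Alkbh2, Alkbh3, Xrcc1 and Polb were called in none of the comparisons (edgeR quasi-likelihood test, Benjamini-Hochberg adjusted p of at most 0.05 over all genes tested). In NT liver, 1 member was called higher and 1 lower at 8 w, 3 higher and 1 lower at 14 w, and 1 higher and 1 lower at 20 w. Over all genes tested, 19.8% were called higher and 15.4% lower at 8 w, 29.4% and 24.9% at 14 w, and 16.7% and 10.9% at 20 w. In nodules against no DEN liver, 3 members were called higher and 1 lower at 14 w (all genes 27.4% and 23.3%), and 2 higher and 1 lower at 20 w (all genes 28.2% and 24.4%). The shares of members called were thus near those of all genes, and their median log2 fold change lay between 0.03 and 0.18 against −0.01 to 0.02 for all genes. Counted instead by groups that do not overlap, in NT liver 2 members lay wholly above and 1 wholly below no DEN liver at 8 w (all genes 18.7% and 14.2%), 2 and 1 at 14 w (25.1% and 25.7%) and 1 and 1 at 20 w (15.7% and 13.1%). In nodules these were 3 and 1 at 14 w (27.7% and 23.7%) and 2 and 1 at 20 w (26.7% and 22.3%).

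**Figure D1:**
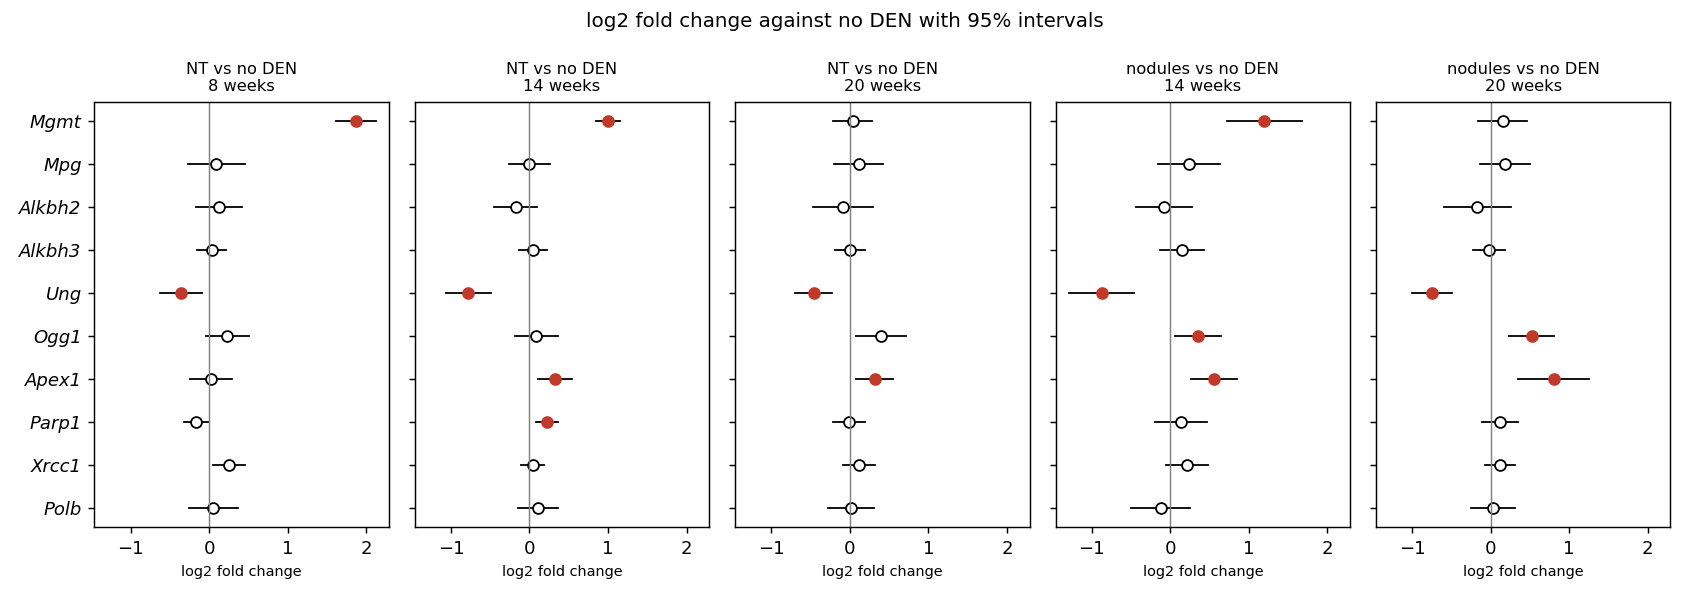
log2 fold change against no DEN liver (horizontal axis, log2 scale) of each of the 10 genes in NT liver at 8, 14 and 20 weeks and in nodules at 14 and 20 weeks. Circles are estimates, lines 95% intervals of the fit, and filled red circles an adjusted p of at most 0.05. Mgmt lies at 1.87, 1.00 and 0.03 in NT liver at the 3 times, and Ung is to the left of 0 in all 5 panels.

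Mgmt encodes O6-methylguanine-DNA methyltransferase, which moves an alkyl group from guanine onto itself and is used up by the reaction. Its promoter region is shown because Mgmt had the largest response of the members, and those of Ung and Apex1 because these genes moved in opposite directions in the same tissues. The sequences are RefSeq's for assembly GRCr8, from 250 bases before to 50 after the start of the gene, 5′ to 3′ on the strand of the gene. Capitals mark motifs searched on either strand. The first is the GC box, spelled GGGCGG. The next is the CCAAT box, spelled as its name. The last is an E2F site, spelled TTTGGCGC, TTTCCCGC, TTTCGCGC or TTTGCCGC. RefSeq gave such a region for 9 of the 10 members and none for Polb.
Mgmt, chr1:201140582-201140881, plus strand: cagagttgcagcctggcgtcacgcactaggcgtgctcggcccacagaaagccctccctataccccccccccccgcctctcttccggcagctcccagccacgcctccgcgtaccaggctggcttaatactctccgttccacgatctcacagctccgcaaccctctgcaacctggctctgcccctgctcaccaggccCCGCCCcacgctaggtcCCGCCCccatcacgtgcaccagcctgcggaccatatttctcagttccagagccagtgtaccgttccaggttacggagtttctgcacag
Ung, chr12:48153996-48154295, minus strand: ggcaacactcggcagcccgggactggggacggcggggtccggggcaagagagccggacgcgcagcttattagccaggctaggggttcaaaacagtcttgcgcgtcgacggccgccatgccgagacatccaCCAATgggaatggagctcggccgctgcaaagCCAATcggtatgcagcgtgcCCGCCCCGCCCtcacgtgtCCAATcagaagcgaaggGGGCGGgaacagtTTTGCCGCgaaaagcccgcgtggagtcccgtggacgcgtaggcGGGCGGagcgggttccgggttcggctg
Apex1, chr15:26617976-26618275, plus strand: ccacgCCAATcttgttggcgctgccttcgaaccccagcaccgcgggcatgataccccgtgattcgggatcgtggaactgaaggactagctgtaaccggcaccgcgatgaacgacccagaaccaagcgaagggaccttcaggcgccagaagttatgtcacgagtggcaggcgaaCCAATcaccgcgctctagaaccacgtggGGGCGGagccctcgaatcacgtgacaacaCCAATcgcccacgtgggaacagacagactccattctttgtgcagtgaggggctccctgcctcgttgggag

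Mgmt held 2 GC boxes and no CCAAT box, Ung held 4 GC boxes (of which 2 overlap), 3 CCAAT boxes and the only E2F site among the 9 regions, and Apex1 held 1 GC box and 3 CCAAT boxes. Of 33469 rat promoter regions of the same length, 33.1% held a GC box, 37.5% a CCAAT box and 2.14% an E2F site. A match describes the letters only and says nothing on binding. The genome coordinates of these regions belong to GRCr8, whereas the reads were aligned to rn6. In the GRCr8 annotation Ung and Alkbh2 are neighbours on chromosome 12 that are transcribed away from each other, and Ung and Apex1 each have 2 annotated pseudogene copies. Ogg1 overlaps Camk1 there, and the strands of the 2 genes were not compared. Pairs were counted by strand, so the Ogg1 level is uncertain only if both genes lie on the same strand. Since read pairs that matched several places were dropped before counting, the levels of Ung and Apex1 may be understated.

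In no DEN liver at 8 w, Mgmt was at 26.3, 25.7, 33.7 and 24.6 CPM in the 4 rats. In NT liver at 8 w it was at 93.2, 114, 91.8 and 106 CPM. Every DEN rat was above every untreated rat, and the difference was 1.87 on the log2 scale (SE 0.114, 95% interval 1.62 to 2.12, adjusted p = 4.70e-06, edgeR), a 3.65-fold higher level. Among 10812 genes tested, Mgmt had the 11th smallest p in this comparison. It was the only member past the fold change of 2 and adjusted p of 0.01 that the study applied to NT liver, which 7.29% of all genes passed upward.

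At 14 w, Mgmt was at 33.0, 28.5, 32.5 and 28.8 CPM in no DEN liver and at 62.2, 57.0, 58.3 and 62.4 CPM in NT liver. The groups again did not overlap, but the difference was smaller, at 1.00 on the log2 scale (SE 0.069, adjusted p = 3.62e-06, edgeR) and just short of a fold change of 2. At 20 w the levels were 33.4, 37.2, 28.3 and 40.7 CPM in no DEN liver and 36.1, 38.3, 31.1 and 35.7 CPM in NT liver. The groups then lay over each other, and the difference was 0.03 with a 95% interval from −0.21 to 0.28 (adjusted p = 0.844, edgeR).

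The fall of the Mgmt response was tested directly, as the interaction of treatment and time. Between 8 w and 14 w the log2 difference from no DEN liver shrank by 0.87 (SE 0.131, adjusted p = 0.00319, edgeR), and between 14 w and 20 w it shrank by a further 0.96 (SE 0.139, adjusted p = 0.00257). Of all genes, 4.80% were called in this direction from 8 w to 14 w and 0.373% from 14 w to 20 w (0.365% the other way), and Mgmt had the 10th smallest p in both tests. In a fit of all 8 groups together the second change was −0.95 with an adjusted p of 0.0517. Mgmt in untreated liver had means of 27.6, 30.7 and 34.9 CPM at the 3 times, with overlapping rats.

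**Figure D2:**
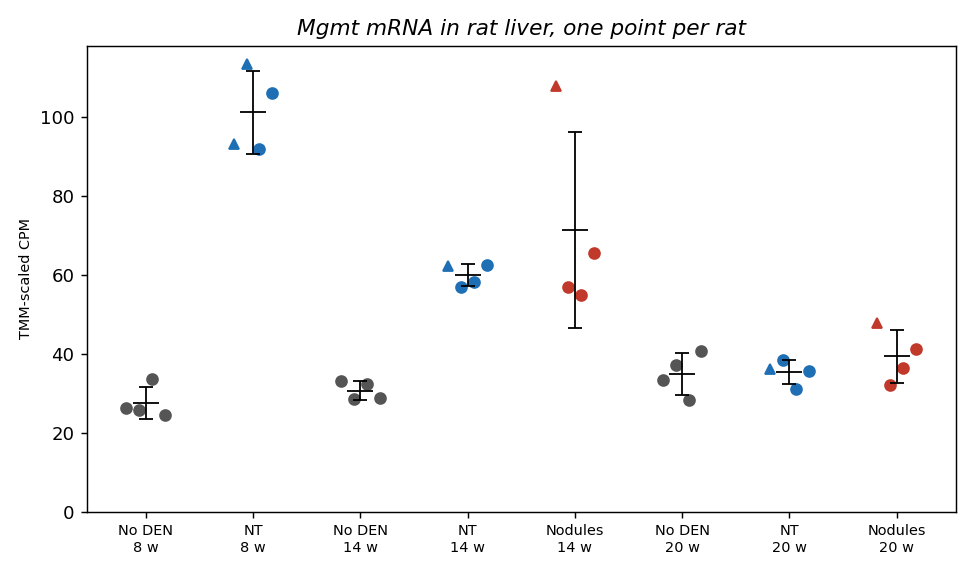
Mgmt level (TMM-scaled CPM, vertical axis from 0) in each rat of the 8 groups. Circles are rats numbered H, triangles rats numbered F, the 2 nodules of a rat are added, and bars show mean and SD of 4 rats. NT liver stands at 91.8 to 114 CPM at 8 w, 57.0 to 62.4 at 14 w and 31.1 to 38.3 at 20 w, where it overlaps untreated liver.

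In nodules Mgmt was called higher at 14 w and not at 20 w. At 14 w the nodules of the 4 rats were at 108, 56.9, 54.9 and 65.5 CPM, all above no DEN liver, for a log2 difference of 1.20 (SE 0.212, adjusted p = 0.00152, edgeR). The value of 108 CPM came from rat F06, whose separate nodules were at 124 and 101 CPM. Without this rat the difference was 0.95 (SE 0.083, adjusted p = 1.19e-06). At 20 w the nodules were at 47.8, 32.2, 36.4 and 41.3 CPM, overlapping no DEN liver, for a difference of 0.16 (95% interval −0.16 to 0.47, adjusted p = 0.375). The highest nodule at 20 w, at 66.9 CPM, was from rat F03, whose other nodule was at 38.4 CPM, the largest gap between the nodules of a rat for any member (1.74-fold). The change of the nodule effect from 14 w to 20 w was −1.05 (SE 0.276, unadjusted p = 0.00157), with an adjusted p of 0.562. In the fit of all 8 groups it passed, at −1.04 with an adjusted p of 0.0480. Over all genes, 0.0775% were called in this direction and 0.00862% in the other.

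The genes whose log2 CPM followed Mgmt most closely over the 32 rat-by-tissue values were Nhej1 (Pearson r = 0.968), Cdkn1a (r = 0.942) and Mok (r = 0.941), among 10067 genes. These values share libraries and treatment groups, so the correlation is a description. Nhej1 encodes a factor that joins broken DNA ends. Its mean level was 1.78 CPM in no DEN and 9.99 CPM in NT liver at 8 w, 2.09 and 5.49 CPM at 14 w, and 2.31 and 2.52 CPM at 20 w. Cdkn1a encodes the p21 cell-cycle inhibitor, a target of the p53 damage response. Its means were 32.5 and 227 CPM at 8 w, 37.1 and 139 CPM at 14 w, and 43.0 and 52.6 CPM at 20 w. Of 12 p53 target genes, 8 were called higher and 1 lower in NT liver at 8 w, 11 and 1 at 14 w, and 3 and 2 at 20 w (all genes 19.8% and 15.4%, 29.4% and 24.9%, and 16.7% and 10.9%). Their median log2 difference was 0.99, 1.07 and 0.18. Fas, a death receptor, was among the highest in the list at all 3 times (1.51, 1.80 and 0.76). Sesn2 was called lower at all 3 times (−0.37, −0.50 and −0.43). In nodules, 9 of the 12 targets were called higher and 1 lower at 14 w (all genes 27.4% and 23.3%). At 20 w these were 6 and 3 (all genes 28.2% and 24.4%). The median of the targets in nodules was 1.05 at 14 w and 0.29 at 20 w. Nodule means at these times were 5.56 and 2.33 CPM for Nhej1, and 141 and 49.4 CPM for Cdkn1a.

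The other direct reversal enzymes did not follow Mgmt. Alkbh2, which repairs double-stranded DNA, was between 5.38 and 10.1 CPM in every rat and tissue, and its log2 difference from no DEN liver ran from −0.17 to 0.13 over the 5 comparisons. Alkbh3, which prefers single-stranded DNA and RNA, was between 20.7 and 32.2 CPM, with differences from −0.02 to 0.15. For Alkbh3 in NT liver at 8 w the 95% interval ran from −0.15 to 0.21. Mpg, the glycosylase of alkylated purines, was between 4.24 and 7.88 CPM, with differences from −0.004 to 0.24 and intervals of at most 0.64 at the upper end. The highest differences of Alkbh3 (0.15) and Mpg (0.24) were those of nodules at 14 w, and without rat F06 they were 0.06 and 0.08.

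Ung encodes uracil-DNA glycosylase and was the only member called lower in any comparison with no DEN liver. In no DEN liver at 14 w it was at 49.1, 48.1, 41.5 and 44.7 CPM, against 33.5, 21.5, 22.7 and 27.0 CPM in NT liver and 36.6, 20.2, 21.9 and 22.7 CPM in nodules. Every DEN tissue was below every untreated liver. The log2 difference at 14 w was −0.78 in NT liver (SE 0.13, adjusted p = 0.00065, edgeR) and −0.87 in nodules (SE 0.184, adjusted p = 0.00384), or −1.08 in nodules without rat F06 (SE 0.077).

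At 20 w Ung was at 45.3, 43.1, 37.6 and 42.9 CPM in no DEN liver, at 35.6, 30.8, 25.1 and 30.0 CPM in NT liver and at 29.5, 26.3, 20.8 and 25.1 CPM in nodules. The groups of DEN tissue again did not overlap no DEN liver, with log2 differences of −0.46 (SE 0.108, adjusted p = 0.0105) and −0.75 (SE 0.114, adjusted p = 0.000615, edgeR). Ung thus remained below untreated liver at the time when Mgmt did not differ beyond its spread, although the change of the Ung difference from 14 w to 20 w in NT liver, 0.32, had an adjusted p of 0.384. At 8 w the difference was smaller, with 49.6, 44.2, 43.6 and 38.6 CPM in no DEN liver and 39.2, 39.0, 32.1 and 27.5 CPM in NT liver. These groups overlapped, and the difference of −0.36 (SE 0.119, adjusted p = 0.0384) was lost in 7 of 14 alternatives, among them leaving out untreated rat H05, H06 or H07 or NT rat H17 or H18 (adjusted p from 0.0598 to 0.0975). The change of the Ung difference from 8 w to 14 w, −0.42, was not called (adjusted p = 0.164) and passed only without NT rat F06 of 14 w (−0.56, adjusted p = 0.0277).

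Scaling bears on the size of the Ung difference. With library size alone in place of TMM, the median log2 difference of all genes was 0.19 to 0.57, against −0.01 to 0.02 with TMM, and the Ung difference shrank to −0.17, −0.36 and −0.25 in NT liver at the 3 times and to −0.31 and −0.26 in nodules. Relative to the median of all genes in the same fit it was −0.36, −0.81, −0.49, −0.88 and −0.77. The direction of Ung was lower in every fit against no DEN liver. With library size alone NT liver at 14 w kept the call, and the others lost it, with adjusted p of 0.221 in NT liver at 8 w, 0.0661 at 20 w, and 0.131 and 0.0533 in nodules at 14 w and 20 w.

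The genes most similar to Ung over the 32 values were Extl1 (r = 0.962), Serpinf2 (r = 0.954) and Scp2 (r = 0.952). Serpinf2 encodes the plasma protein alpha-2-antiplasmin made by hepatocytes, and Scp2 a sterol carrier of peroxisomes. Scp2 had means of 1760 CPM in no DEN and 913 CPM in NT liver at 14 w. The summed level of the 5 hepatocyte markers was 265934 to 301133 CPM in no DEN liver at 14 w, 178183 to 218150 CPM in NT liver and 159011 to 189161 CPM in nodules. At 14 w, 3 of the 5 hepatocyte markers were called lower and 1 higher, in NT liver and in nodules alike. In NT liver 1 was called lower and 0 higher at 8 w. In NT liver at 20 w, 0 were called lower and 1 higher, and the sums overlapped, at 270782 to 313455 CPM in no DEN and 215090 to 280006 CPM in NT liver. In nodules at 20 w, 3 were called lower and 1 higher, and the sums, 152340 to 216456 CPM, lay below those of no DEN liver. The summed level of 4 cholangiocyte markers was 15.9 to 23.3 CPM in no DEN liver, 36.6 to 85.7 CPM in NT liver and 61.9 to 114 CPM in nodules at 14 w. Of all genes, 19.8% were called higher and 15.4% lower in NT liver at 8 w, 29.4% and 24.9% at 14 w, and 16.7% and 10.9% at 20 w. In nodules these shares were 27.4% and 23.3% at 14 w and 28.2% and 24.4% at 20 w. Among markers of other cells in NT liver, 6 of 6 leukocyte, 4 of 5 stellate and fibroblast, 3 of 4 cholangiocyte and 3 of 4 endothelial markers were called higher at 8 w. Of the leukocyte markers, Cd3d, Cd3g and Cd79b were at most 0.72, 1.17 and 1.40 CPM there. At 14 w, 3 of 4 tested leukocyte markers, 4 of 5 stellate and fibroblast markers and 3 of 4 endothelial markers were called higher. Pdgfrb of the stellate and fibroblast list was the exception called lower at both times. It was at 35.9 to 54.2 CPM in no DEN and 32.5 to 37.1 CPM in NT liver at 8 w. At 14 w it was at 45.0 to 55.0 CPM in no DEN and 29.5 to 34.4 CPM in NT liver. The summed levels at 14 w were 32.8 to 46.0 CPM in no DEN and 55.3 to 90.2 CPM in NT liver for 6 leukocyte markers, and 56.1 to 91.9 and 112 to 145 CPM for 4 endothelial markers. For the 5 stellate and fibroblast markers they were 185 to 234 and 344 to 451 CPM, of which the collagen gene Col3a1 made up 122 to 165 and 279 to 329 CPM. In NT liver at 20 w, 4 of 4 cholangiocyte and 3 of 5 tested leukocyte markers were called higher. So were 3 of 5 stellate and fibroblast and 3 of 4 endothelial markers. In nodules at 14 w the counts were 4 of 4, 5 of 6, 4 of 5 and 3 of 4, in that order. At 20 w they were 4 of 4, 4 of 6, 4 of 5 and 3 of 4. Each time 1 stellate and fibroblast marker was called lower. In bulk tissue fewer cells of a type and less RNA per cell cannot be told apart, and the part of cell composition in the Ung difference was not tested.

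Proliferation genes moved the other way from Ung. All 16 genes of a proliferation list were called higher in NT liver at 8 w and 14 w and in nodules at both times, and 10 in NT liver at 20 w. Of all genes, 19.8%, 29.4% and 16.7% were called higher in NT liver at the 3 times, and 27.4% and 28.2% in nodules. Their summed level was 69.6 to 79.1 CPM in no DEN liver and 177 to 357 CPM in NT liver at 14 w. Dut, the enzyme that keeps uracil out of DNA by hydrolysing dUTP, rose while Ung fell. Dut was at 8.62 CPM in no DEN and 16.7 CPM in NT liver at 14 w (log2 difference 0.98, SE 0.112, adjusted p = 5.44744e-05, edgeR), and at 20.5 CPM in nodules (1.23, SE 0.102, adjusted p = 2.8041e-05).

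**Figure D3:**
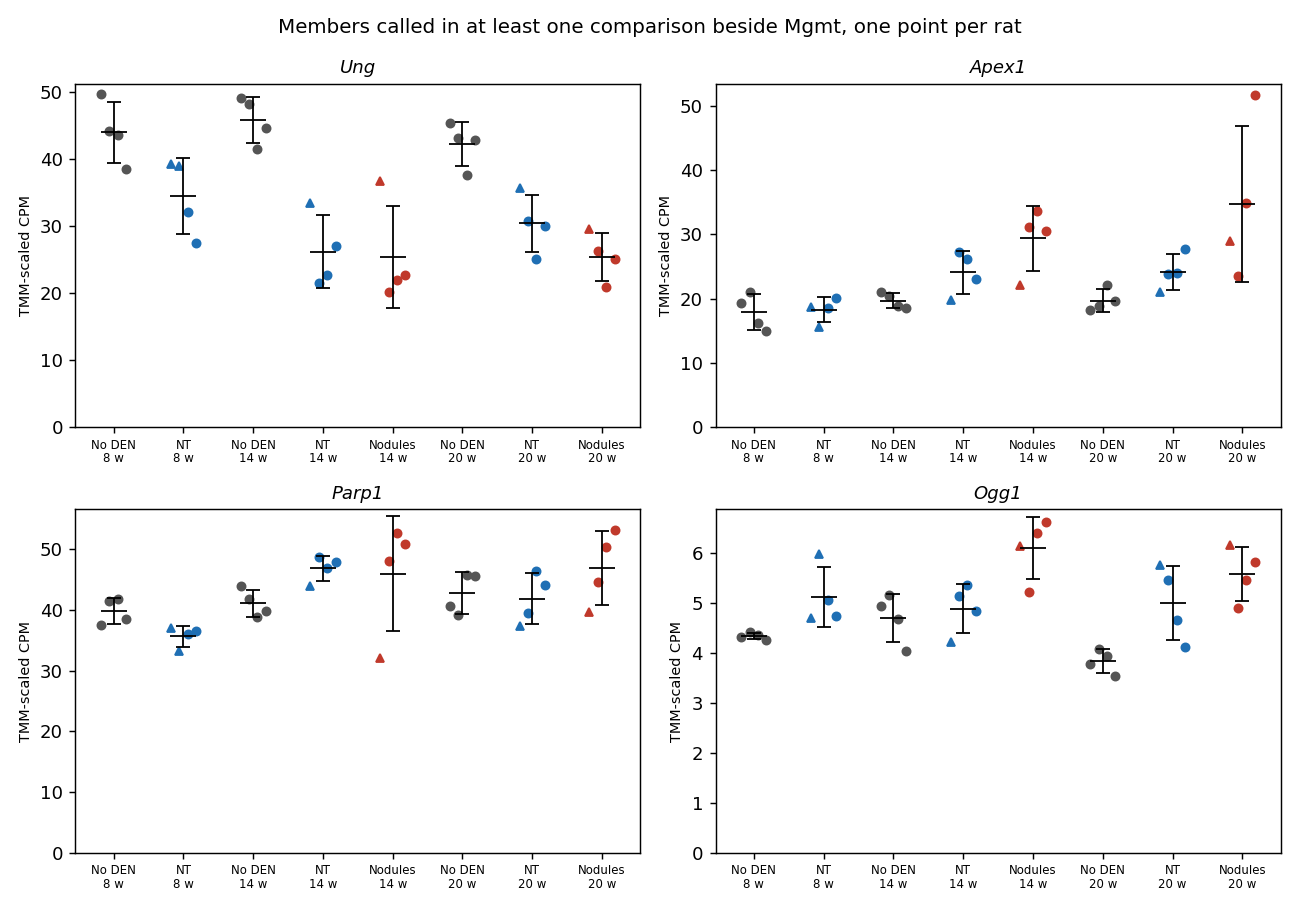
Levels (TMM-scaled CPM, vertical axes from 0) of Ung, Apex1, Parp1 and Ogg1 in each rat of the 8 groups. Circles are rats numbered H, triangles rats numbered F, the 2 nodules of a rat are added, and bars show mean and SD of 4 rats. Ung is lower in all 5 DEN groups, and Apex1 reaches its highest value, 51.7 CPM, in nodules at 20 w.

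Apex1 encodes the endonuclease that cuts the strand at a site without a base. At 8 w it was at 15.0 to 21.1 CPM in no DEN liver and at 15.6 to 20.2 CPM in NT liver, a log2 difference of 0.03 (adjusted p = 0.877). The change of this difference from 8 w to 14 w, 0.30, was not called (adjusted p = 0.266). At 14 w it was at 21, 20.4, 18.8 and 18.6 CPM in no DEN liver, 19.8, 27.3, 26.2 and 23.1 CPM in NT liver and 22.1, 31.2, 33.7 and 30.6 CPM in nodules. All nodule values were above untreated liver, while NT liver of rat F06 was not. The log2 difference was 0.32 in NT liver (SE 0.099, adjusted p = 0.0172) and 0.56 in nodules (SE 0.128, adjusted p = 0.00594, edgeR).

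At 20 w Apex1 was at 18.2, 18.8, 22.2 and 19.6 CPM in no DEN liver, 21, 23.8, 24.0 and 27.8 CPM in NT liver, and 29.0, 23.5, 35.0 and 51.7 CPM in nodules. Nodules did not overlap untreated liver and spread over a wider range than any other group, with both nodules of rat H28 high at 63.1 and 46.6 CPM. The log2 difference was 0.80 in nodules (SE 0.203, adjusted p = 0.00801) and 0.32 in NT liver (SE 0.106, adjusted p = 0.0454, edgeR). The call in NT liver was lost in 5 of the alternatives at 14 w and in 9 at 20 w. At 20 w it was lost without no DEN rat H13, H14 or H16, or without NT rat H25, H26 or H28, with adjusted p from 0.0658 to 0.126. At 14 w it was lost without no DEN rat H11 or H12, or without NT rat H21 or H22, with adjusted p from 0.0506 to 0.0543. Apex1 and Ung ran in opposite directions over the 32 values (r = −0.74). The genes most similar to Apex1 were Vps18 (r = 0.932), Ftsj3 (r = 0.926) and Carm1 (r = 0.924).

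Parp1 encodes the polymerase that adds ADP-ribose chains at strand breaks. In NT liver at 8 w it was at 36.9, 33.1, 36.0 and 36.5 CPM against 37.5, 41.4, 41.8 and 38.5 CPM in no DEN liver. All DEN rats were below all untreated rats, which held for 14.2% of all genes, but the difference of −0.16 had an adjusted p of 0.102. At 14 w it was at 43.9, 48.6, 46.9 and 47.8 CPM against 43.9, 41.9, 38.8 and 39.8 CPM, with the lowest DEN rat next to the highest untreated rat, a log2 difference of 0.22 (SE 0.062, adjusted p = 0.0115, edgeR) that was lost in the fit of all 8 groups (0.19, adjusted p = 0.153). The difference between 8 w and 14 w was itself called, at 0.38 (SE 0.087, adjusted p = 0.0148), a direction called for 4.16% of all genes. It was lost without NT rat H21 at 14 w (0.33, adjusted p = 0.0568) and in the fit of all 8 groups (adjusted p = 0.213). In nodules at 14 w, rat F06 had 32 CPM and the other rats 48.1, 52.7 and 50.9 CPM. The log2 difference was 0.14 (adjusted p = 0.449) with rat F06 and 0.31 (SE 0.066, adjusted p = 0.00147) without it.

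Ogg1 encodes the glycosylase of 8-oxoguanine, an oxidised base. At 20 w it was at 3.77, 4.09, 3.95 and 3.54 CPM in no DEN liver, 5.76, 5.48, 4.67 and 4.12 CPM in NT liver and 6.17, 4.90, 5.47 and 5.82 CPM in nodules. Every DEN tissue was above every untreated liver. The difference was 0.52 in nodules (SE 0.129, adjusted p = 0.00678) and 0.40 in NT liver, which did not pass (adjusted p = 0.0619, edgeR). At 14 w the difference in nodules was 0.35 with an adjusted p of 0.04997, at the threshold, and the call was lost in 9 alternatives, among them leaving out any 1 of the 4 untreated rats or nodule rat H22 or H23 (adjusted p from 0.0652 to 0.142). At 20 w the call in nodules was lost with nodule 1 alone (0.44, adjusted p = 0.0616), and NT liver gained one in the fit of all 8 groups (0.38, adjusted p = 0.0173), with library size alone (0.61, adjusted p = 0.00926) and without rat H28 (0.47, adjusted p = 0.0461).

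Xrcc1, the scaffold of single-strand break repair, was at 26.4, 27.0, 26 and 30.8 CPM in no DEN and 32.9, 37.6, 28.8 and 32.6 CPM in NT liver at 8 w. The difference of 0.26 had an adjusted p of 0.0528 and passed in 4 alternatives, the fit of all 8 groups (0.26, adjusted p = 0.0346), library size alone, and leaving out untreated rat H08 (0.31, adjusted p = 0.0314) or NT rat H17 (0.31, adjusted p = 0.0154). At the later times its differences were 0.04 and 0.12 in NT liver and 0.21 (adjusted p = 0.170) and 0.12 in nodules, of which that in nodules at 14 w passed in the fit of all 8 groups (0.23, adjusted p = 0.0346). With library size alone, which raised the median of all genes, each of these later differences passed (0.33 to 0.78, adjusted p from 0.000323 to 0.0290, edgeR). Polb, the polymerase that fills the gap, stayed between 4.68 and 8.42 CPM, with differences from −0.12 to 0.11 over the 5 comparisons and a 95% interval of −0.27 to 0.31 in NT liver at 20 w.

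**Figure D4:**
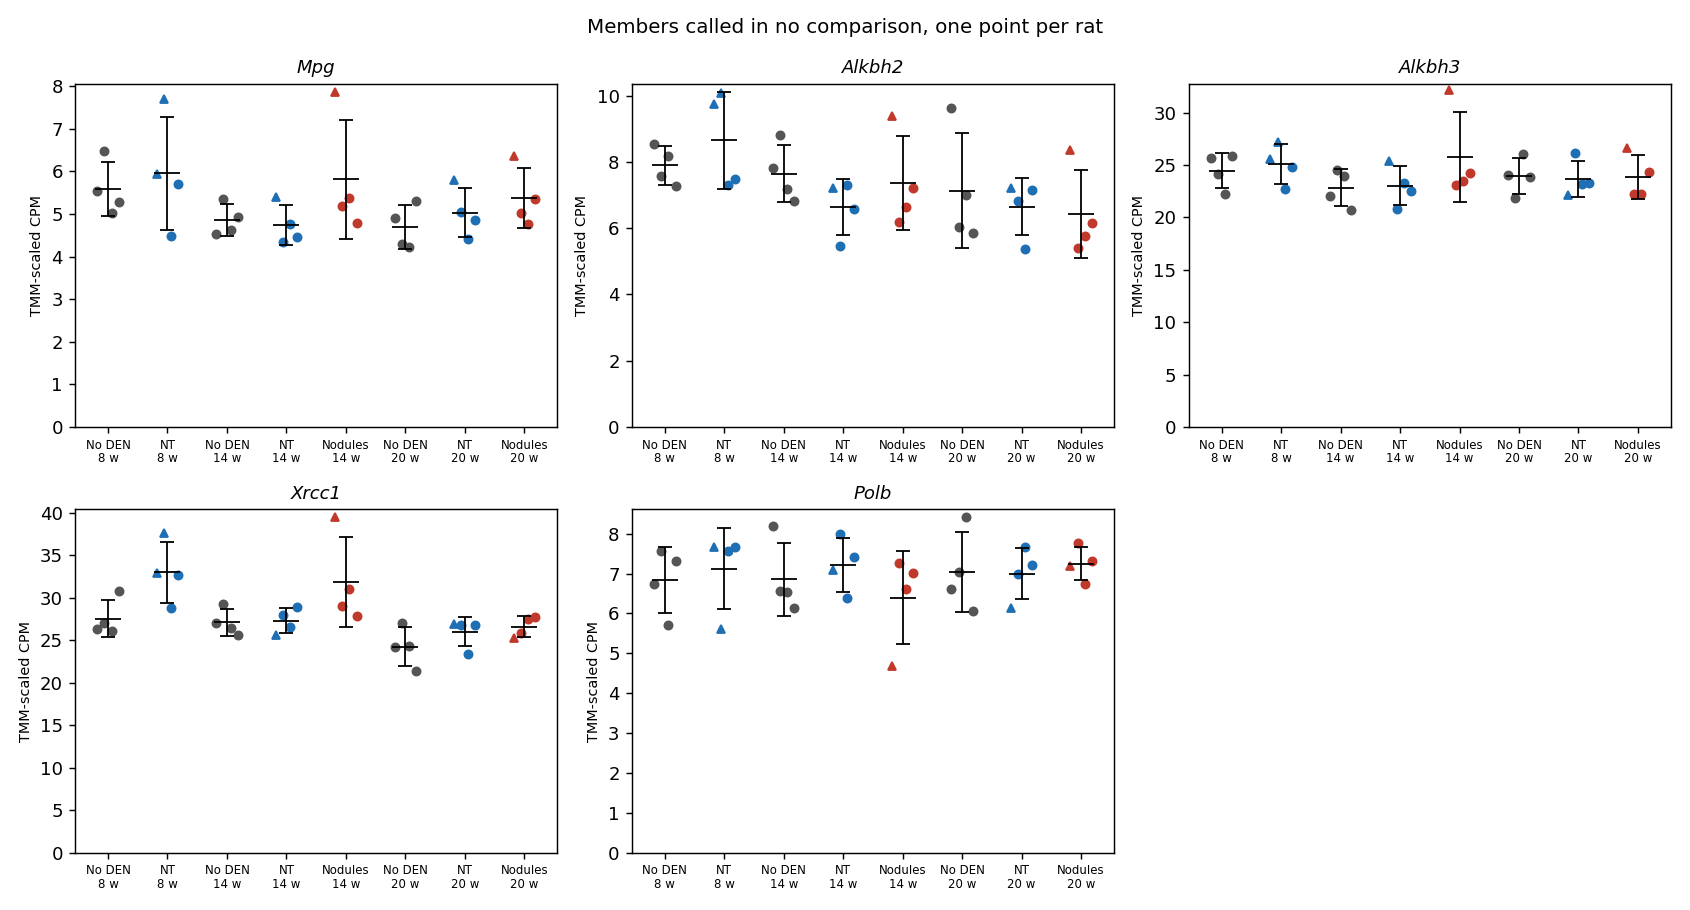
Levels (TMM-scaled CPM, vertical axes from 0) of Mpg, Alkbh2, Alkbh3, Xrcc1 and Polb in each rat of the 8 groups. Circles are rats numbered H, triangles rats numbered F, the 2 nodules of a rat are added, and bars show mean and SD of 4 rats. No member in these panels passed the test, and the highest group mean is at most 1.36 times the lowest.

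Nodules were also compared with NT liver of the same animals. In the main fit, which had no block for the rat, no member and no gene at all was called at either time (edgeR). At each time 1 of 10 members had an unadjusted p of at most 0.05. Of all genes, 11.8% did so at 14 w and 24.0% at 20 w. DESeq2 called 70 genes at 14 w and 1113 at 20 w, with 0 members among them. With the rat as a block, 3378 genes passed at 20 w, 13.6% upward and 15.7% downward, and 2 members were among them. Apex1 was then higher in nodules by 0.45 (SE 0.127, adjusted p = 0.0292, higher in 3 of 4 rats), against 0.49 with an adjusted p of 0.189 without the block. Ung was lower by 0.29 (adjusted p = 0.00894), in 4 of 4 rats, against an adjusted p of 0.223 without the block. At 14 w the block gave no call for any gene. Apex1, Mpg, Alkbh3 and Ogg1 were then higher in nodules of 4 of 4 rats, with blocked differences of 0.26, 0.25, 0.13 and 0.29 and adjusted p of 0.180, 0.260, 0.335 and 0.232. At 20 w Parp1 was higher in 4 of 4 rats (0.13, adjusted p = 0.176). For Mgmt the blocked difference was 0.17 at 14 w (95% interval −0.20 to 0.54) and 0.12 at 20 w (−0.09 to 0.33).

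**Figure D5:**
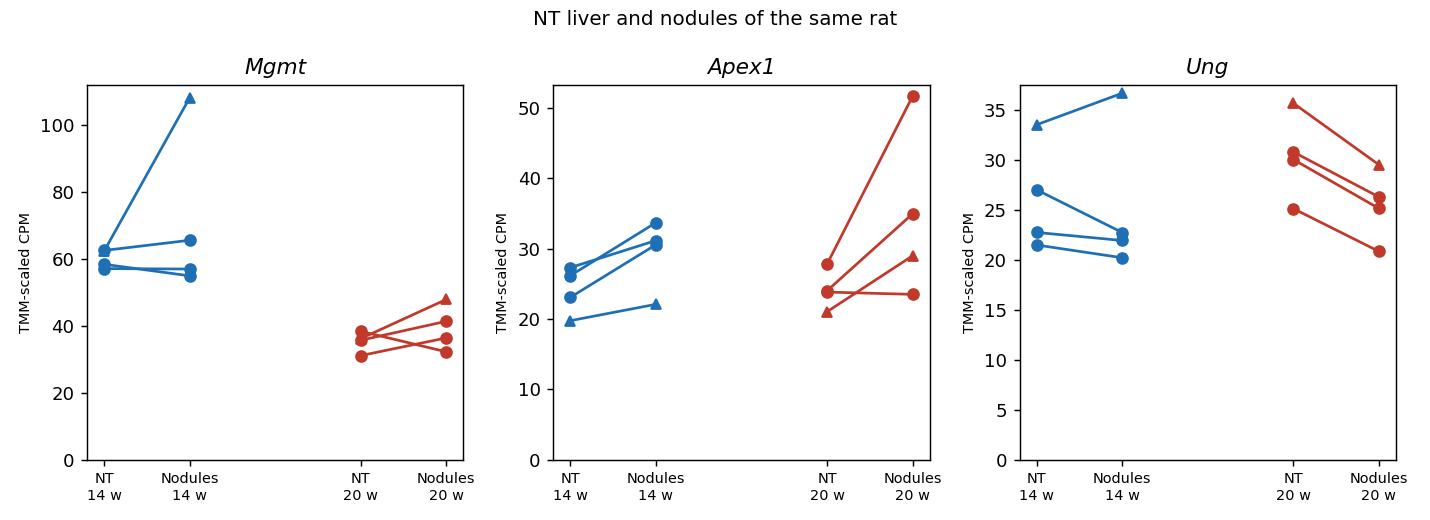
Levels (TMM-scaled CPM, vertical axes from 0) of Mgmt, Apex1 and Ung in NT liver and nodules, with a line joining the 2 tissues of each rat (blue 14 w, red 20 w, triangles rats numbered F). At 20 w Ung is lower in the nodules of all 4 rats, and Apex1 is higher in 3 of them.

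Rats numbered F among the DEN rats (4 of 12) differed from those numbered H for some members. The F rats were F09 and F10 in NT liver at 8 w, F06 in NT liver and nodules at 14 w, and F03 in both tissues at 20 w. The 5 DEN groups are therefore not independent. The labels do not say what the letter means, and all untreated rats were numbered H. Mpg and Ung were higher in every F rat than in every H rat in all 5 DEN groups, a pattern found in 4.12% of 11596 genes, and Alkbh2 and Alkbh3 were so in 4 groups. In the fifth group, NT liver at 20 w, Alkbh3 was lower in the F rat (22.1 CPM) than in the H rats (23.2 to 26.2 CPM). Parp1 was lower in F rats in 4 groups. Over all genes, 13.6% were higher and 14.0% lower in F rats in 4 or 5 groups. When the fits by comparison, with no block, were repeated without the F rats, Parp1 in nodules at 14 w gained its call and no other call of a member changed. The blocked fit and the fit of all 8 groups were not repeated without them.

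The rest of the repair machinery was counted from lists of known members. Of 34 further base excision repair genes in the files, 32 were tested in NT liver, where 14 were called higher and 1 lower at 8 w, 13 and 3 at 14 w, and 7 and 1 at 20 w. The shares over all genes, which apply to each list below too, were 19.8% higher and 15.4% lower at 8 w, 29.4% and 24.9% at 14 w, and 16.7% and 10.9% at 20 w. Their median log2 difference was 0.25, 0.22 and 0.21. In nodules, 14 of 33 were called higher and 5 lower at 14 w, and 13 and 4 at 20 w (all genes 27.4% and 23.3%, and 28.2% and 24.4%). Among the largest rises were genes that also copy DNA. Pole2, a subunit of the replicative polymerase epsilon, rose in NT liver by 1.61 at 8 w (adjusted p = 0.00286) and 1.80 at 14 w. Pold2, a subunit of polymerase delta, rose by 1.06 and 1.07. Rfc1, the large subunit of the clamp loader, was lower in all 5 comparisons, with −0.40 at 8 w and −0.61 in nodules at 14 w. Lig3, the ligase that works with Xrcc1, was lower in nodules at 14 w (−0.58) and 20 w (−0.60). Neil1 (−0.39) and Tdg (−0.27), further glycosylases, were lower in NT liver at 14 w.

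Nucleotide excision repair is the route for bulky lesions. Of its 20 genes, 0 were called higher and 4 lower in NT liver at 8 w, 4 and 7 at 14 w, 1 and 2 at 20 w, and in nodules 1 and 4 at 14 w and 1 and 5 at 20 w, so the share called lower in nodules was near that of all genes. Xpc, which finds the lesion, was called lower in all 5, with means of 91.9 CPM in no DEN liver, 49.0 CPM in NT liver and 39.5 CPM in nodules at 14 w (−0.87 and −1.24). Ddb2, its partner in damage recognition, was lower too at 14 w (−0.63 and −0.70). In mismatch repair, 3, 6 and 2 of 10 genes were called higher in NT liver (9 tested at 20 w) and 3 in nodules at each time, with no gene called lower. Exo1, an exonuclease, rose from 0.213 to 1.28 CPM in NT liver at 14 w. In translesion synthesis, which copies past a lesion, 2, 4 and 1 of 10 genes were called higher and 0, 3 and 0 lower in NT liver. Rad18, the ligase that starts that route, rose from 0.542 to 1.77 CPM in NT liver at 14 w (1.73). In nodules, 1 translesion gene was called higher and 1 lower at 14 w (all genes 27.4% and 23.3%). At 20 w these were 2 and 2 (all genes 28.2% and 24.4%). Of 9 other direct reversal and damage recognition genes tested, 0, 1 and 1 were called higher and 2, 2 and 1 lower in NT liver. In nodules 2 of them were called higher and 2 lower at each time. Ascc3, a partner of Alkbh3, was lower in all 5 comparisons, from −0.29 in NT liver at 14 w to −0.68 in nodules at 14 w.

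The enzymes that activate DEN were called lower in part of the comparisons. Of 3 tested genes, 3 were called lower in NT liver at 20 w and in nodules at 14 w and 20 w (10.9%, 23.3% and 24.4% of all genes). In NT liver at 14 w, 1 was called lower (24.9% of all genes), and the 3 differences ran from −1.15 to −0.14. Cyp2e1, the main activating enzyme, had a mean of 2567 CPM in no DEN liver at 20 w, 1891 CPM in NT liver (−0.42) and 1190 CPM in nodules (−1.12). At 8 w, when Mgmt was highest, Cyp2e1 was higher in NT liver (0.43, adjusted p = 0.0203) and Cyp2a2 lower (−0.45, adjusted p = 0.00472). The part of these enzymes in the member differences was not tested.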

How the data were processed

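The authors aligned stranded, paired reads of polyadenylated liver RNA to rn6 with STAR 2.7.1a and counted pairs on exons with HTSeq (reverse strand, whole pair within a gene, pairs matching several places dropped). The deposited values are raw counts per gene, with no normalization or filter by the authors. Their 5 summary rows per library were left out of library sizes; pairs outside exons made up 21.5% to 34.5% of all pairs and pairs matching several places 7.96% to 16.3%. The 10 members and all gene lists were chosen with earlier results of these data known. Groups and rats came from the labels. Nodules of a rat were added. For each comparison, the 2 groups were fitted with edgeR 4.0.16 in R 4.3.3 (filterByExpr, TMM, robust quasi-likelihood F test, 2-sided), with Benjamini-Hochberg adjustment over all genes; changes of effect were interactions over 4 groups. The named genes are all 10 members, the list genes with the 3 largest and 3 smallest log2 fold changes among those called, and the 3 genes most similar to a member (mean of at least 1 CPM, prior count 2). Rats are separate animals, and replicate counts differed by at least 12.9 times counting error (chi-square per degree of freedom). The labels give NT liver and nodules the same rat number, hence the same animal, and their deviations from the group means correlated at 0.37 to 0.55 in every rat. The alternatives were DESeq2 1.42.0, RLE scaling, library size alone, no filter, 1 fit of all 8 groups, no F rats, each rat left out, each nodule alone and the rat as block. Scripts were tested on simulated data. Coordinates of the genes in rn6 are not used here.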

Additional observations from a re-analysis of the deposited data

Results flagged for a closer look

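Among 80 sets of values, 1 for each member in each group of 4 rats, 4 held a rat that stood far from the other 3, about as many as chance gives (1 in 20). In nodules at 14 w, rat F06 had 32.2 CPM of Alkbh3 against 23.1 to 24.3 CPM in the others, and 36.6 CPM of Ung against 20.2 to 22.7 CPM. The nodules of this rat also had the highest shares of pairs outside annotated exons. Its part in these values was not tested. NT liver of rat H26 at 20 w, the most deeply sequenced library, had 23.4 CPM of Xrcc1 against 26.7 to 26.9 CPM. NT liver of rat F10 at 8 w had 5.61 CPM of Polb against 7.56 to 7.66 CPM.

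The effect of DEN in NT liver differed between times in 3 cases. The Mgmt effect changed by −0.87 from 8 w to 14 w and by −0.96 from 14 w to 20 w, and the Parp1 effect by 0.38 from 8 w to 14 w, on the log2 scale.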

How the results depend on the processing

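Of 1680 member values recomputed, 1607 kept their side of the threshold, 38 lost a call, 31 gained one, and 4 turned their sign and gained a call. Of the 1607, 131 turned their sign without a call in either fit, 16 of them with library size alone and 15 without the F rats, from estimates of at most 0.24 in size. The Mgmt calls in NT liver at 8 w (1.81 to 2.07) and 14 w (0.96 to 1.42) held in every alternative. The 4 sign turns that gained a call arose with library size alone, which raised the median of all genes: Mpg in NT liver at 14 w (0.42), Alkbh2 (0.49) and Polb (0.45) in nodules at 14 w, and Alkbh3 in nodules at 20 w (0.47). That scaling gave 9 members called in NT liver and 9 in nodules at 14 w, and 8 in nodules at 20 w. It put 88.6% to 92.2% of called genes upward, against 53.6% to 60.4% with TMM. Called members were 2 in NT liver at 14 w and 1 each for the changes of the NT effect from 8 w to 14 w, of the nodule effect, and for nodules against NT liver at 20 w in the fit of all 8 groups, and 0 for the change of the NT effect from 14 w to 20 w. At 20 w NT liver, 1 member was called with RLE scaling or no filter, and nodule 2 alone gave 1 for the change of the nodule effect. Leaving out 1 rat gave 1 to 3 called members in NT liver at 8 w, 1 to 2 at 20 w and 1 to 3 for the change from 8 w to 14 w.

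Over all genes, nodules against NT liver gave 70 calls at 14 w with DESeq2, and at 20 w 1113 with DESeq2, 1722 in the fit of all 8 groups, 239 with nodule 1 alone and 3378 with the rat as replicate block, while leaving out a rat gave 0 to 451 (the latter without rat H25). The change of the NT effect from 8 w to 14 w gave 1522 (DESeq2), 1852 (library size alone) and 151 (all 8 groups), with 533 (without NT rat H21) to 1870 (without NT rat H17) when a rat was left out. From 14 w to 20 w it gave 386, 144 and 41, 182 without the F rats, and 31 (without NT rat H22) to 408 (without NT rat H26) when a rat was left out. The nodule effect gave 29 (DESeq2), 16 (all 8 groups) and 5 (nodule 1 alone), with 6 to 15 when a rat was left out. In NT liver at 20 w leaving out a rat gave 1872 (without no DEN rat H16) to 3116 calls. The block changed no other member's call. The causes were not tested.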
